A study of Mus musculus with 15 samples.

Results

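The Cyp2a and Cyp2b genes of mouse liver and Nr1i3, which encodes the receptor CAR that controls Cyp2b10, are 8 of the 13938 genes in the deposited expression table. They were picked by gene name: Cyp2a4, Cyp2a5, Cyp2a12, Cyp2a22, Cyp2b9, Cyp2b10, Cyp2b13 and Nr1i3. The study measured polyadenylated RNA of C57BL/6J mice in 15 samples, 5 groups of 3. Model mice received intraperitoneal diethylnitrosamine (DEN), a liver carcinogen, and carbon tetrachloride (CCl4), which kills hepatocytes, and developed hepatocellular carcinoma (HCC). Model mice 8, 15 and 25 each gave a big HCC nodule, a small HCC nodule and a thymus. Normal mice received intraperitoneal corn oil and gave livers and thymi. Nodules were sampled whole, 1 of each size per mouse, so an effect of the tumour and an effect of the chemicals cannot be told apart in the comparison with livers of oil-injected mice. Age and sex of the mice, the doses and the treatment times are not stated in the labels. A difference in age or sex between model and normal mice would enter the same comparison and was not tested.

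CAR is a nuclear receptor of hepatocytes that senses drugs, pollutants and steroid metabolites. It is held in the cytoplasm with the chaperone HSP90, enters the nucleus when activated, pairs with RXR and switches on Cyp2b10 and other detoxification genes. The CYP2A and CYP2B proteins are cytochrome P450 enzymes of the endoplasmic reticulum that oxidise steroids, drugs and toxins and take electrons from P450 reductase or cytochrome b5. Cyp2a4, Cyp2b9 and Cyp2b13 are known as transcripts of female mouse liver, set by the sex-specific pattern of growth hormone release. The 7 P450 genes lie together on chromosome 7 of mm10, from Cyp2b10 at chr7:25897620-25926624 to Cyp2a12 at chr7:27029081-27037375, while Nr1i3 lies at chr1:171213970-171220701, plus strand.

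The promoters of 5 of the P450 genes are printed to set their likeness beside the changes in the nodules: a near-identical pair of which 1 gene passed (Cyp2a4 and Cyp2a5), a near-identical pair that both rose (Cyp2b9 and Cyp2b13), and the less similar Cyp2b10, which fell. They run from 250 bases before to 50 bases after the RefSeq start of each gene, on the plus strand of GRCm38.p6, 5′ to 3′, and all 8 genes had an entry. Capitals mark matches to the motifs named after them. The intervals are chr7:26306942-26307241 for Cyp2a4, chr7:26835089-26835388 for Cyp2a5, chr7:26173159-26173458 for Cyp2b9, chr7:26061245-26061544 for Cyp2b13 and chr7:25897408-25897707 for Cyp2b10.
Cyp2a4: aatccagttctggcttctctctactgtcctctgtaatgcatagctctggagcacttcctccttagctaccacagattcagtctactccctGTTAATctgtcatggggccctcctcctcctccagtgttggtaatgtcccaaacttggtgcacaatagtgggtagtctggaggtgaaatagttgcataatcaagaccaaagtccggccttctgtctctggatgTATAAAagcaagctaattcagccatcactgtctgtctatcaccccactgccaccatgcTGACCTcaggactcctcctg
Cyp2a5: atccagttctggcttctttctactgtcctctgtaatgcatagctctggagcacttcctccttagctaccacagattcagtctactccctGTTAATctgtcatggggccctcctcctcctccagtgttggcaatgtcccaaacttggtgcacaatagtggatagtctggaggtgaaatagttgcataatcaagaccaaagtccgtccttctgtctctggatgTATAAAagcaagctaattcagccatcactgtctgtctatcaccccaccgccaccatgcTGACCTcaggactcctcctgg
Cyp2b9: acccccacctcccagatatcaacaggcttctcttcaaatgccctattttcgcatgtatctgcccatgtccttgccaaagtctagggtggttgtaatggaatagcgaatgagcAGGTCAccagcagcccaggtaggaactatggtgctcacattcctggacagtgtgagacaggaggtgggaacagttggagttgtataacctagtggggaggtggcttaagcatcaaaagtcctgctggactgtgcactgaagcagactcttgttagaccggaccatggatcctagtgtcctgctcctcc
Cyp2b13: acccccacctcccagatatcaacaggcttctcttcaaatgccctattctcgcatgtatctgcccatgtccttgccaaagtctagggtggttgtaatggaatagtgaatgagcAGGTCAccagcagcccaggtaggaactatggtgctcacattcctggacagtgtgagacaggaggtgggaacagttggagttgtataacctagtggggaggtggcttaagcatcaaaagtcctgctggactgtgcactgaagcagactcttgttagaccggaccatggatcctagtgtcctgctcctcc
Cyp2b10: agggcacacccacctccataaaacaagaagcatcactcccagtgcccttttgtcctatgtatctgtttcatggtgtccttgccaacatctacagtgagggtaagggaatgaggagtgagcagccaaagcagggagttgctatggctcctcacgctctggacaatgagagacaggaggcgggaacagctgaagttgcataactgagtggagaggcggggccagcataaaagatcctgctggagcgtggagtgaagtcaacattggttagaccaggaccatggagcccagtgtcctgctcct
The Cyp2a4 and Cyp2a5 windows were 97.7% identical when aligned, with 5 substitutions. Those of Cyp2b9 and Cyp2b13 differed at 2 of 300 positions. The Cyp2b10 window was 71.7% identical to either of them. Motifs were searched on both strands within these windows alone, and no matches overlapped. Elements farther from the starts were not searched. Cyp2a4 and Cyp2a5 each held GTTAAT, an HNF1 half-site found in 7.1% of 32851 RefSeq promoters of this length. They also held TATAAA, found in 13.6%, from -28 to -23 in Cyp2a4 and from -29 to -24 in Cyp2a5. The nuclear receptor half-site AGGTCA, found in 16.3% of promoters, lay from -138 to -133 in both Cyp2b9 and Cyp2b13, and in reverse complement just after the start codon of Cyp2a4 and Cyp2a5. Cyp2a12 and Cyp2a22 held TATAAA only, and Cyp2b10 and Nr1i3 held none of the motifs. The STAT5 motif TTCNNNGAA (8.3% of promoters) and the antioxidant response core TGACNNNGC (12.4%) had no match in any of the 8 windows.

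Values are FPKM, a fragment count scaled by exon length and by the mapped fragments of the sample. The nodules summed to 331746 to 338793 FPKM and the livers to 364160 to 377984 FPKM, and the read depth is unknown. The liver label held: Alb, which encodes the albumin made by hepatocytes, had 19491 to 26620 FPKM in nodules and 10578 to 12804 FPKM in livers. The big nodule of mouse 25 stood apart in its mitochondrially encoded transcripts, which made up 2.88% of its FPKM, against 6.93 to 8.98% for the remaining nodules and 7.83 to 11.1% in livers. Nodules were compared with livers over 3 mice and 3 livers, with both nodules of each mouse averaged, by limma on log2(FPKM + 1), Benjamini-Hochberg adjustment over 10669 genes and an adjusted p under 0.05. Of the 8 genes 5 passed: 3 rose and 2 fell, where 40.5% of all tested genes passed, 27.4% upward and 13.1% downward. Of all calls 67.6% were thus upward, against 78.8% after scaling samples to the same sum and 48.9% with median-of-ratios scaling, and the 5 genes kept their directions and calls under both. The same 5 did not overlap between the 6 nodules and the 3 livers, against 39.7% of all tested genes, 27.4% above and 12.3% below. The share of the 8 genes that changed is thus not far from the background, and the results lie in which genes changed and by how much. Cyp2b13 passed the filter on low values only through the nodules and Cyp2b10 only through the livers.

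**Figure D1:**
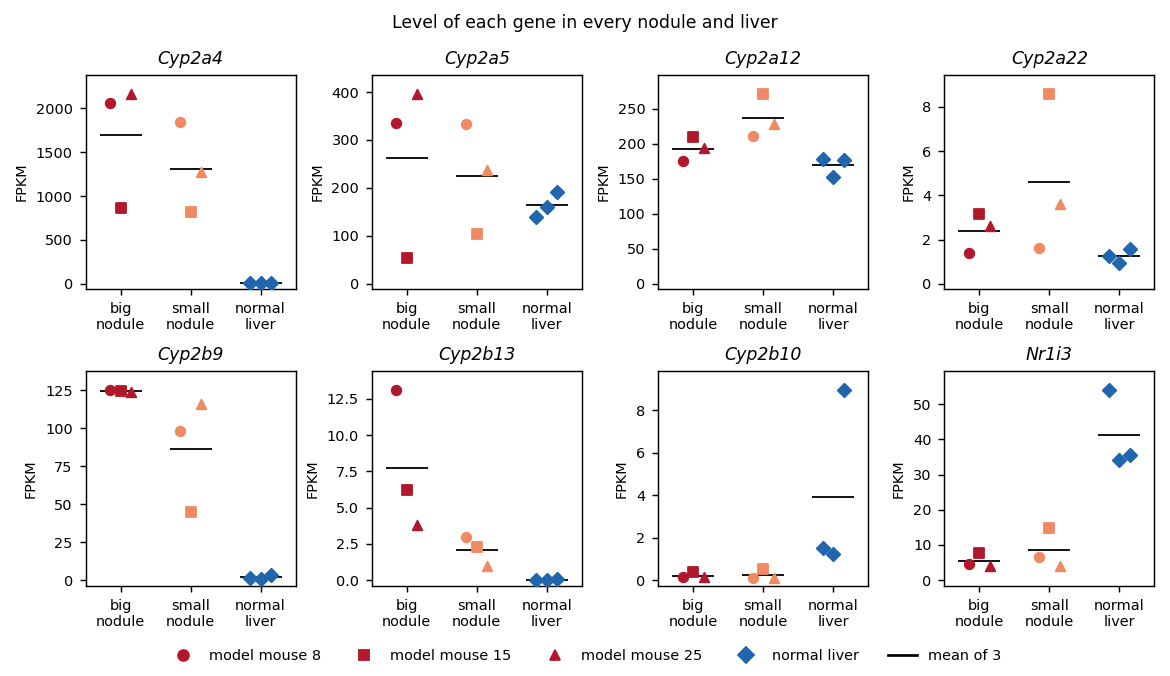
FPKM of each gene in the 3 big nodules, 3 small nodules and 3 normal livers, on a linear axis of its own per gene; symbols mark the mouse and horizontal lines the mean of 3. Cyp2a4 reached 2169 FPKM in nodules, against at most 5.80 FPKM in livers, and Nr1i3 was at most 14.7 FPKM in nodules, against at least 34.0 FPKM in livers.

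Nr1i3 transcripts were lower in every nodule than in every liver. Nr1i3 had 4.57, 7.83 and 3.97 FPKM in the big nodules of mice 8, 15 and 25, 6.48, 14.7 and 4.16 FPKM in their small nodules, and 54.0, 34.0 and 35.5 FPKM in livers 2, 3 and 5. The highest nodule, the small one of mouse 15, was 2.32-fold below the lowest liver. Nr1i3 fell by 2.50 on the log2(FPKM + 1) scale (SE 0.314, adjusted p = 0.000575), with mouse means of 6.95 ± 3.80 FPKM in nodules and a mean of 41.2 ± 11.2 FPKM in livers (SD, n = 3 each). In bulk tissue, fewer cells of a type and less RNA per cell cannot be told apart. The main coding transcript Nr1i3-208 followed the gene, at most 9.84 FPKM in nodules and at least 23.2 FPKM in livers. The other listed transcripts were also lower, Nr1i3-202 at 0.152 to 1.68 FPKM in nodules and 2.91 to 5.30 FPKM in livers, and Nr1i3-203 at 0 to 0.968 FPKM in nodules and 2.12 to 2.54 FPKM in livers. Of 8 annotated Nr1i3 transcripts 3 were listed.

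Cyp2b10, the P450 gene most used as a readout of CAR, was scarce in all samples and lower in nodules. Cyp2b10 had 0.135, 0.362 and 0.133 FPKM in the big nodules of mice 8, 15 and 25, 0.107, 0.509 and 0.107 FPKM in their small nodules, and 1.52, 1.22 and 8.96 FPKM in livers 2, 3 and 5. No nodule reached the lowest liver, and liver 5 stood well above the other livers. Cyp2b10 fell by 1.65 (SE 0.509, adjusted p = 0.0331). Without liver 5 the change was -0.96 (adjusted p = 0.00421). The call was lost without mouse 8 (-1.59, adjusted p = 0.0773), without mouse 15 (-1.77, adjusted p = 0.0643) and without mouse 25 (-1.59, adjusted p = 0.0806). The change itself moved little in these runs. They kept liver 5 and had an SE of 0.593 to 0.612, against 0.159 without liver 5. With transcripts in place of genes, the coding transcript Cyp2b10-202 changed by -1.73 and did not pass (adjusted p = 0.104).

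The neighbouring Cyp2b9, a testosterone hydroxylase gene of female liver, went the other way. Cyp2b9 had 125, 124 and 124 FPKM in the big nodules of mice 8, 15 and 25, 98.5, 45.0 and 116 FPKM in their small nodules, and 1.35, 0.81 and 3.37 FPKM in livers 2, 3 and 5. The 3 big nodules were nearly equal, the small nodule of mouse 15 was the lowest, and that nodule was still 13.4-fold above the highest liver. Cyp2b9 rose by 5.25 (SE 0.322, adjusted p = 2.27e-05), with mouse means of 105 ± 18.5 FPKM in nodules and a mean of 1.84 ± 1.35 FPKM in livers (SD, n = 3 each). Cyp2b13, the third Cyp2b gene and also female-biased, had 13.1, 6.22 and 3.81 FPKM in the big nodules, 2.96, 2.30 and 0.982 FPKM in the small nodules, was listed at 0 in livers 2 and 3, and had 0.0492 FPKM in liver 5. Cyp2b13 rose by 2.25 (SE 0.280, adjusted p = 0.000556) on the log2(FPKM + 1) scale, and for a gene this low that scale gives too small a change. The Cyp2b9 and Cyp2b13 coding sequences were 92.7% identical, and 10.8% of the 50-base windows of either transcript occurred exactly in the other. Across the big nodules Cyp2b13 spanned 3.81 to 13.1 FPKM while Cyp2b9 stayed between 124 and 125 FPKM.

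Cyp2a4, a testosterone hydroxylase gene, showed the largest change of the 8. Cyp2a4 had 2061, 867 and 2169 FPKM in the big nodules of mice 8, 15 and 25, 1840, 819 and 1273 FPKM in their small nodules, and 5.41, 5.80 and 5.41 FPKM in livers 2, 3 and 5. Every nodule was at least 141-fold above the highest liver, and mouse 15 gave the lowest nodule of both sizes. Cyp2a4 rose by 7.74 (SE 0.284, adjusted p = 3.71e-06). By level it ranked between place 16 and place 50 among all genes of the table in nodules, and between 4688 and 5007 in livers.

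Cyp2a5, the coumarin hydroxylase gene and the closest copy of Cyp2a4, did not pass the test. Cyp2a5 had 335, 53.2 and 397 FPKM in the big nodules of mice 8, 15 and 25, 333, 103 and 238 FPKM in their small nodules, and 139, 160 and 192 FPKM in livers 2, 3 and 5. The 4 nodules of mice 8 and 25 lay above all livers and the 2 nodules of mouse 15 below all of them. The mean difference was 0.28 (SE 0.517, adjusted p = 0.703), with mouse means of 243 ± 143 FPKM in nodules and a mean of 164 ± 26.5 FPKM in livers (SD, n = 3 each). Mouse 15 decided this result: without it Cyp2a5 was higher by 0.98 and passed (adjusted p = 0.00612), and without mouse 8 or mouse 25 the difference was -0.10 or -0.04.

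Cyp2a4 and Cyp2a5 are so alike that reads can be assigned to the wrong copy. Their coding sequences of 1482 bases were 98.5% identical, with 23 substitutions, and 36.1% of the 50-base windows and 11.2% of the 100-base windows of the Cyp2a4 transcript occurred exactly in that of Cyp2a5. Summed before the test, Cyp2a4 and Cyp2a5 rose by 3.25 (SE 0.322, adjusted p = 0.000186), and Cyp2b9, Cyp2b10 and Cyp2b13 together by 4.29 (SE 0.502, adjusted p = 0.000414). The ratio of the Cyp2a4 to the Cyp2a5 coding transcript was 5.25 to 16.0 in nodules and 0.0276 to 0.0378 in livers, and did not overlap.

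Cyp2a12 and Cyp2a22, the other pair of copies, did not pass, though 5 of 6 nodules lay above all livers for each. Cyp2a12, a hydroxylase of steroids and bile acids, had 176, 210 and 193 FPKM in the big nodules of mice 8, 15 and 25, 211, 272 and 229 FPKM in their small nodules, and 178, 153 and 177 FPKM in livers 2, 3 and 5. The big nodule of mouse 8 was the 1 nodule within the range of the livers, and the difference was 0.33 (SE 0.134, adjusted p = 0.0831). Cyp2a12 passed with the small nodules alone (0.48, adjusted p = 0.0392), after scaling samples to the same sum (0.48, adjusted p = 0.0242) and after quantile normalization (0.56, adjusted p = 0.0108). Cyp2a22 had 1.39, 3.15 and 2.61 FPKM in the big nodules, 1.64, 8.61 and 3.60 FPKM in the small nodules, and 1.25, 0.94 and 1.58 FPKM in the livers. The small nodule of mouse 15 was the highest for Cyp2a22 as for Cyp2a12. The difference of Cyp2a22 was 0.84 (SE 0.303, adjusted p = 0.0578), and it passed without mouse 8 (1.18, adjusted p = 0.00588) and after scaling to the same sum (0.93, adjusted p = 0.0385). Without mouse 15 it was 0.51 (adjusted p = 0.133), and after quantile normalization 0.57 (adjusted p = 0.167). The coding sequences of Cyp2a12 and Cyp2a22 were 97.0% identical, and what share of the low Cyp2a22 values came from reads of its abundant copy was not tested.

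**Figure D2:**
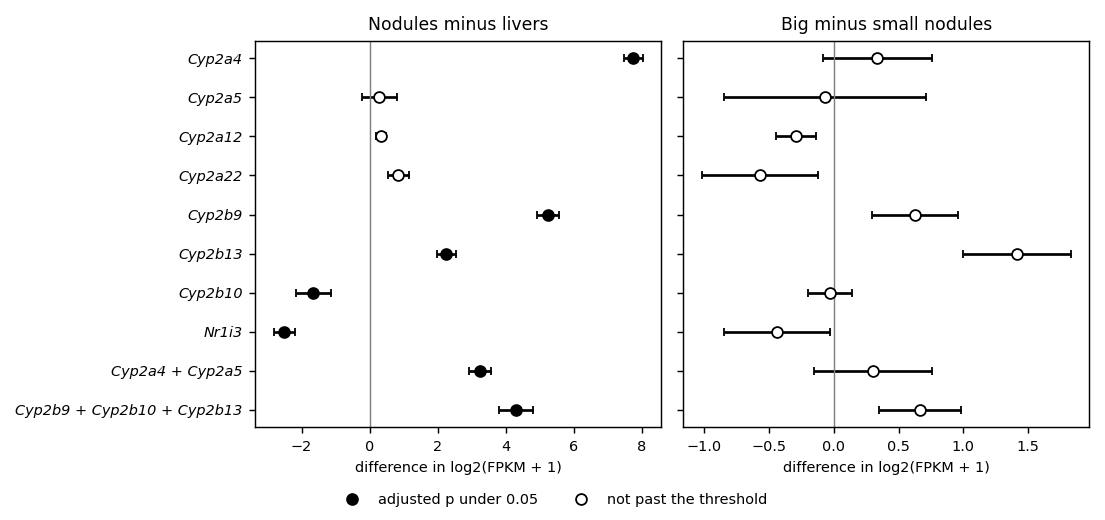
Difference in log2(FPKM + 1) for the 8 genes and for 2 sums of related genes, in nodules minus livers (left) and big minus small nodules (right), with SE bars from limma, 3 against 3. Filled points passed an adjusted p of 0.05: Cyp2a4 at 7.74 and Nr1i3 at -2.50 are the ends of the left panel, and no point of the right panel passed.

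The make-up of the Cyp2a and Cyp2b transcripts differed between nodules and livers. Levels of different genes were compared on the coding transcript of each, because gene values are spread over all annotated exon bases: the coding transcript Cyp2a12-201 has 1681 of the 3457 exon bases of its gene, and its FPKM was 354 to 536 in nodules and 307 to 358 in livers. On this scale Cyp2a4 held 53.9 to 71.1% of the 7 transcripts in nodules and 0.94 to 1.21% in livers. Cyp2a12 held 12.2 to 35.3% in nodules and 62.2 to 69.9% in livers. Cyp2a5 held 3.67 to 13.2% in nodules and 28.1 to 34.1% in livers, and Cyp2b9 2.96 to 8.44% in nodules and 0.168 to 0.585% in livers. None of these 4 ranges overlapped. By gene values, the 7 genes together held 0.376 to 0.869% of all FPKM in nodules and 0.0856 to 0.107% in livers, and their sum rose by 2.51 (SE 0.264, adjusted p = 0.000248).

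**Figure D3:**
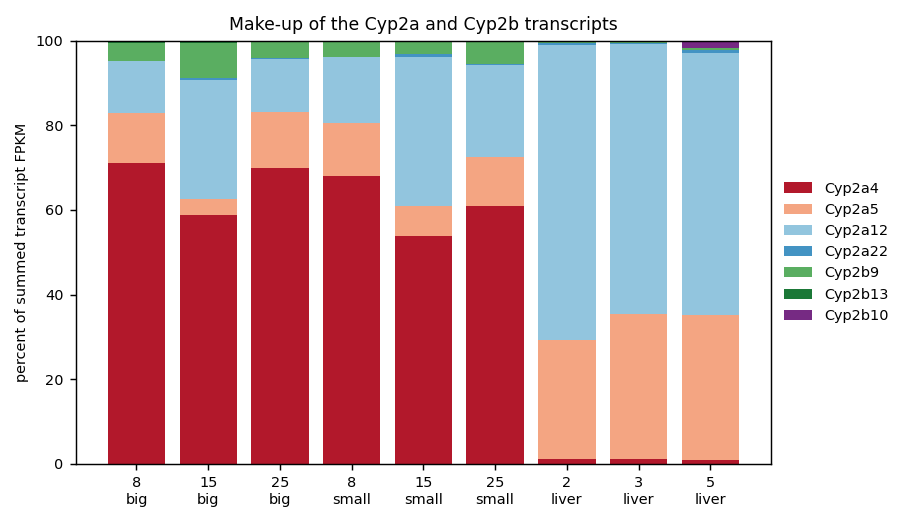
Share of each gene's coding transcript in the summed FPKM of the 7 Cyp2a and Cyp2b transcripts, in percent, 1 bar per nodule or liver. Cyp2a4 takes 53.9 to 71.1% of each nodule bar, and Cyp2a12 takes 62.2 to 69.9% of each liver bar.

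Big and small nodules of the same mice were compared to describe tumour size. With limma without pairing 0% of 10669 genes passed, and none of the 8 did. An unadjusted p under 0.05 was found for 431 genes, a share below the 0.05 expected when no gene differs. The fit left out the pairing by mouse, which can raise p, so this share cannot show that no gene differs. Cyp2b13 was the only one of the 8 among the 431 genes. It was higher in the big nodule of all 3 mice, 4.43-fold in mouse 8, 2.70-fold in mouse 15 and 3.88-fold in mouse 25. The difference was 1.41 (SE 0.415, adjusted p = 0.948). Cyp2b9 and Cyp2a4 were also higher in the big nodule of 3 of 3 mice, by 0.63 (SE 0.328) and 0.34 (SE 0.420). Nr1i3, Cyp2a12 and Cyp2a22 were lower in the big nodule of 3 of 3 mice, at -0.44 (SE 0.411), -0.29 (SE 0.156) and -0.57 (SE 0.449). Several of these differences shrank without the small nodule of mouse 15: Cyp2b9 to 0.22, Cyp2a4 to 0.037, Cyp2a12 to -0.19 and Cyp2a22 to -0.080. Nr1i3 was then 0.0098. The fit did not pair nodules, so mouse 15 then entered through its big nodule alone. Within mice Cyp2a4 was higher in the big nodule by 1.12-fold in mouse 8, 1.06-fold in mouse 15 and 1.70-fold in mouse 25. With mouse as a block the SE was 0.196 for Cyp2a4 (adjusted p = 0.706) and 0.180 for Nr1i3 (adjusted p = 0.668). Without the big nodule of mouse 8 or mouse 25, Cyp2a4 was 0.14 or 0.11. Cyp2a5 and Cyp2b10 had no common direction in the 3 mice. The adjusted p of the other 7 genes lay between 0.948 and 0.995. Without the big nodule of mouse 25, whose mitochondrial share stood apart, Cyp2b13 differed by 1.77 (adjusted p = 0.990). With the big nodules alone against livers Cyp2b13 rose by 2.96, and with the small nodules alone by 1.54. Without mouse 25, Nr1i3, Cyp2a4, Cyp2b9 and Cyp2b13 kept their calls against livers.

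Neighbouring genes of the region went in different directions. Of the 20 genes of the table between 200 kb before Cyp2b10 and 200 kb after Cyp2a12, 7 were the P450 genes described and 13 were others, of which 11 were tested. Of these, 5 rose (Tgfb1, Hnrnpul1, Axl, Itpkc and Coq8b) and 2 fell (Cyp2f2 and BC024978), with a median change of 0.32. Over all tested genes 27.4% rose and 13.1% fell, with a median of 0.13. Cyp2b13, Cyp2b9 and Cyp2a4, the 3 that rose, are neighbours, at chr7:26061497-26096197, chr7:26173411-26210661 and chr7:26307169-26315088, while Cyp2b10 on their one side fell and Cyp2a5 on the other, at chr7:26835305-26843548, did not pass. Cyp2f2, a P450 gene best known for naphthalene oxidation in the lung, lies beyond Cyp2a12 at chr7:27119909-27133660 and had 22.2 to 152 FPKM in nodules and 394 to 482 FPKM in livers. It fell by 2.59 (SE 0.169, adjusted p = 2.67e-05). Cyp2g1, the remaining Cyp2 gene of the window, was at most 0.468 FPKM and was not tested. Coq8b, a kinase of coenzyme Q synthesis at the far end of the window, rose by 1.99 (adjusted p = 0.000509).

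**Figure D4:**
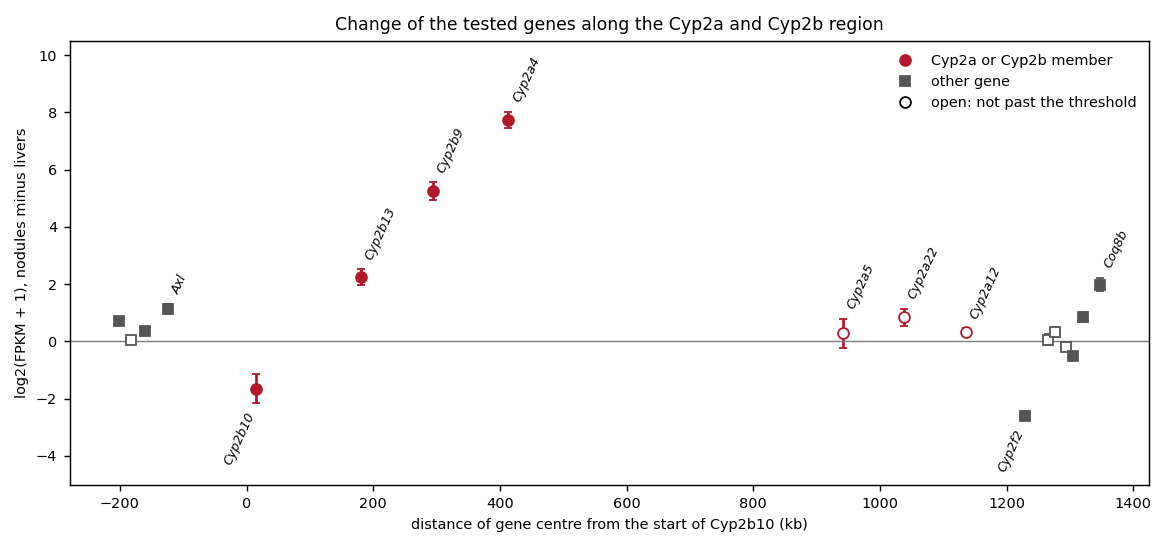
Difference in log2(FPKM + 1), nodules minus livers, of the 18 tested genes of the window, against the distance of the gene centre from the start of Cyp2b10 in kb; bars are SE. Red circles are Cyp2a and Cyp2b genes and grey squares the other genes, and open symbols did not pass. The rises of Cyp2b13, Cyp2b9 and Cyp2a4 lie between the fall of Cyp2b10 and the 3 Cyp2a genes that did not pass.

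The chaperone gene Hsp90aa1 was lower in nodules, while Rxra and Nr1i2, for the dimer partner and sister receptor of CAR, did not pass the test. Of 13 genes for PXR and for partners of CAR and PXR, 0 rose and 2 fell, with a median of -0.06. After scaling to the same sum 1 fell (median 0.07), with median-of-ratios scaling 3 fell (median -0.23) and after quantile normalization 3 fell (median -0.11). The fallers were the HSP90 chaperones Hsp90aa1 (-1.18, adjusted p = 0.0190) with 37.2 to 83.3 FPKM in nodules and 106 to 220 FPKM in livers, and Hsp90ab1 (-0.45, adjusted p = 0.0453), which did not pass after scaling to the same sum (-0.30) or quantile normalization (-0.06). Dnajc7, another partner gene of the list, had 14.0 to 18.5 FPKM in nodules and 14.2 to 16.1 FPKM in livers (0.09, adjusted p = 0.552). Ncoa1 passed downward with median-of-ratios scaling (-0.49) and after quantile normalization (-0.63). Rxrg, another RXR gene, passed downward after quantile normalization (-0.91). Rxra, the dimer partner of CAR, had 41.4 to 69.5 FPKM in nodules and 48.9 to 57.9 FPKM in livers (0.12, adjusted p = 0.646). Nr1i2, which encodes PXR, the sister receptor of CAR, had 21.8 to 36.9 FPKM in nodules and 30.1 to 36.3 FPKM in livers (-0.16, adjusted p = 0.408). Of 24 other genes that CAR or PXR can induce, 15 fell and 5 rose, with a median of -1.31. Over all tested genes 13.1% fell and 27.4% rose, with a median of 0.13. The smallest adjusted p among the 24 were those of the falls of Cyp2c54, Cyp2c37, Cyp2c50 and Cyp1a2. The 5 risers were named after their values were seen. They were the aldo-keto reductase Akr1b7 (2.82), the glutathione transferase Gstm3 (1.56), the stress gene Gadd45b (1.27) and the export pumps Abcc4 (1.14) and Abcc2 (0.49). Abcc2 did not pass with median-of-ratios scaling (0.29). Akr1b7 and Abcc4 passed the filter on low values only through the nodules, with at most 0.20 and 0.504 FPKM in livers. Of 4 electron donor genes, cytochrome b5 genes Cyb5b (-1.29, adjusted p = 0.000101) and Cyb5a (-0.80, adjusted p = 0.00651) fell, while Por, the P450 reductase, had 35.1 to 84.4 FPKM in nodules and 55.7 to 64.9 FPKM in livers (0.11, adjusted p = 0.716).

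Of the lists for other known regulators of Cyp2a and Cyp2b genes, that of male-biased genes fell in 15 of 18. The others held rises and falls. NRF2, the oxidative stress factor that can induce Cyp2a5, had 14 of 16 list genes tested: 6 rose and 2 fell, with a median of 0.33. Among them G6pdx, the entry enzyme of the pentose phosphate pathway, rose by 2.32, the sulfiredoxin Srxn1 by 1.92 and the carbonyl reductase Cbr3 by 2.91, and Gclm, a glutathione synthesis subunit, fell by 0.97, as did Ugdh by 0.98. Of 20 other female-biased liver genes 12 were tested, 6 of which rose and 2 fell, with a median of 0.35. Nipal1 rose by 3.71, the peroxisomal transporter Abcd2 by 4.10 and the sulfotransferases Sult2a1 by 2.33 and Sult2a2 by 3.03. Nipal1, Sult2a1 and Sult2a2 passed the filter on low values only through the nodules. They had at most 0.749, 0.101 and 0.0646 FPKM in livers. The fallers were the prolactin receptor Prlr (-1.69) and the hepcidin copy Hamp2 (-3.21). Of 18 male-biased liver genes 15 fell and 0 rose, with a median of -3.03, for example Susd4 (-3.21) and the steroid dehydrogenase Hsd3b5 (-5.57). Susd4 passed the filter only through the livers, with at most 0.439 FPKM in nodules. The sex of the mice is not stated, and a sex difference between the groups was not tested. Of 8 genes of the growth hormone pathway, the receptor Ghr fell by 1.87 (adjusted p = 4.66e-05), the kinase Jak2 rose by 0.48 and the cofactor Trim24 by 0.96. The call of Trim24 was lost with median-of-ratios scaling (0.79, adjusted p = 0.0649) and after quantile normalization (0.76, adjusted p = 0.0798), where Stat5a and Onecut1 fell. Stat5b, the factor that carries the hormone's signal to sex-biased genes, had 8.29 to 14.8 FPKM in nodules and 7.38 to 17.5 FPKM in livers (0.03, adjusted p = 0.947). The median over all tested genes was 0.13, and 27.4% of them rose and 13.1% fell.

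**Figure D5:**
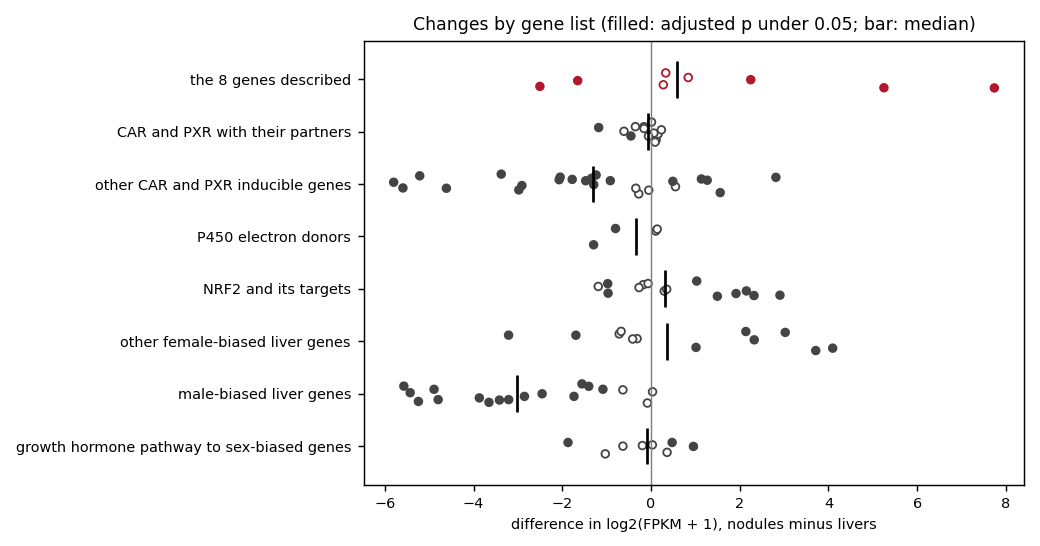
Difference in log2(FPKM + 1), nodules minus livers, of each tested gene of 7 lists and of the 8 genes described; filled points passed an adjusted p of 0.05, bars are medians and the vertical scatter within a list has no meaning. The male-biased list has its median at -3.03 and the CAR and PXR inducible list at -1.31, while the 8 genes run from -2.50 to 7.74.

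Markers of other cells were also measured. Over all tested genes 27.4% rose and 13.1% fell. Of 6 hepatocyte markers 3 rose (Alb, Apoa1 and Serpina1a) and 1 fell (Cps1), and their summed level was 30672 to 44021 FPKM in nodules and 18360 to 21444 FPKM in livers. All 4 endothelial markers rose (43.9 to 73.4 FPKM summed in nodules, 19.4 to 20.8 in livers), as did 4 of 5 macrophage markers, with Clec4f the exception (99.7 to 158 in nodules, 79.1 to 94.4 in livers). Of 6 stellate cell and fibroblast markers the collagens Col1a1, Col1a2 and Col3a1 rose and Dcn fell (36.0 to 63.6 in nodules, 37.0 to 45.1 in livers). Of 5 cholangiocyte markers 4 were tested and 2 rose, Sox9 and Spp1 (55.4 to 387 in nodules, 32.6 to 42.6 in livers), and Krt7 stayed at or near 0. Of 5 T cell and thymocyte markers 1 was tested and it did not pass (3.34 to 13.2 in nodules, 2.62 to 3.43 in livers), and Ptcra had a median of 0 in both. With median-of-ratios scaling and after quantile normalization, Stab2 of the endothelial, Csf1r of the macrophage and Sox9 of the cholangiocyte markers did not pass. Lrat fell under both, and with quantile normalization Krt19 fell. Quantile normalization left no difference of Alb to test (-4.3e-16), because it replaces each level by a value set by rank alone. It therefore cannot show whether Alb changed. Cps1 and Dcn did not pass after scaling to the same sum or quantile normalization, while Apob passed upward under both, and the T cell and thymocyte marker Dntt (0.73 as deposited) passed after scaling to the same sum (0.84, adjusted p = 0.0305). The part of these cells in the changes of the 8 genes was not tested.

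The transcripts most like 7 of the genes were found by Pearson correlation of log2(FPKM + 1) over the 9 nodules and livers, 6 of which come in pairs from the same mouse. Cyp2a4 was most like Ddr1 (0.998) and Osbpl3 (0.997), Cyp2b9 most like Acsl5 (0.996) and Prkca (0.995), and Cyp2b13 most like Bicdl1 (0.974) and Rps18 (0.971). Nr1i3 was most like Etfdh (0.992) and Sult1b1 (0.990), and Cyp2b10 most like Usp10 (0.956) and Mthfd1 (0.939). Cyp2a5 was most like Ccnd2 (0.930) and Rdx (0.917), and Cyp2a12 most like Trak2 (0.959) and Phf12 (0.958). In thymus Nr1i3 was 0 to 0.102 FPKM, Cyp2a12 was 0.129 to 0.684 FPKM, and Cyp2a4 was 2.63 to 2.78 FPKM in model thymi and 1.77 to 3.55 FPKM in normal thymi.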

How the data were processed

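Poly(A) RNA of livers, nodules and thymi was sequenced with a stranded kit on an Illumina instrument, per the labels' protocols. The authors deposited FPKM per gene and per transcript, per the file headers. FastQC 0.11.7, cutadapt, HISAT2 2.1.0, StringTie 1.3.3 and mm10 are named in the submitters' processing notes; the annotation, strand setting and read length: not given in the sources used here. A gene's FPKM equalled its transcripts' FPKM weighted by length over all exon bases, within 1% for 676 of 676 genes with several transcripts, all listed. Without counts, depth is unknown and precision rests on 3 samples per group.

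Groups come from the titles, since the tissue field of thymi names liver or nodule. The liver columns are numbered 2, 3 and 5, and the titles name mice 2, 3 and 3. Genes with at least 1 FPKM in at least 3 of the 9 nodules and livers were tested on log2(FPKM + 1) with limma 3.58.1 in R 4.3.3 (eBayes with trend, two-sided, Benjamini-Hochberg over all genes tested), and the procedure was tested on simulated data. Nodules were averaged per mouse against livers, and big nodules were compared with small ones without pairing. The titles pair nodules by mouse: deviations from the group means correlated at 0.311, 0.261 and 0.325 across genes within mice, and from -0.243 to -0.0457 between mice. Identities came from pairwise alignments (Biopython 1.88) of RefSeq promoters and GENCODE M21 coding sequences; all 8 genes had the same position in GENCODE M21.

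Named genes are the 8 genes, up to 4 genes per list by smallest adjusted p, the 2 most correlated genes of each, and Cyp2 genes of the window; others were named after their values were seen. The genes most correlated with Cyp2a22 are not reported here. The 8 genes and the lists were chosen with earlier results of these data known. Alternatives covered the pseudocount, filter, scaling, sample left out, nodule size, mouse as a block, and transcripts.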

Additional observations from a re-analysis of the deposited data

Results flagged for a closer look

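Cyp2a5 was higher in every thymus of model mice than in every normal thymus, outside the nodule and liver comparisons. It had 4.15, 5.54 and 6.09 FPKM in thymi of model mice 8, 15 and 25, with a median of 5.535 FPKM, against 3.72, 4.06 and 2.79 FPKM in the normal thymi. Cyp2a5 was picked from the 8 genes for this lack of overlap, and the share of all genes without overlap was not counted. Cyp2a4, its closest copy, overlapped, with 2.63 to 2.78 FPKM in model thymi and 1.77 to 3.55 FPKM in normal thymi. The difference of Cyp2a5 was not tested here. Alb, the hepatocyte marker, had 90.0 to 110.5 FPKM in model thymi and 91.2 to 135.3 FPKM in normal thymi, and its relation to the Cyp2a5 values was not tested.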

How the results depend on the processing

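FPKM without counts allow no estimate of counting error, Cyp2b10 and Cyp2b13 are too low for a firm size, and near-identical copies can exchange reads. Against livers, Cyp2a4 (7.50 to 8.11), Cyp2b9 (4.94 to 5.91), Nr1i3 (-2.85 to -2.24) and Cyp2b13 (1.54 to 5.02) kept direction and call under each alternative run, and so did both sums of related genes (3.00 to 3.65 and 3.88 to 4.95). A pseudocount of 0.1 gave 5.02 for Cyp2b13 and -3.19 for Cyp2b10. With a mean of at least 5 FPKM required, 2300 of 5598 genes and 3 of 5 of the 8 genes passed, and Cyp2a22, Cyp2b10 and Cyp2b13 were not tested. The share of calls that were upward was 67.6%, and 78.8% after scaling to the same sum, with a median over all genes of 0.24. It was 48.9% with median-of-ratios scaling (median -0.03) and 49.6% after quantile normalization (median -0.05). The list of CAR and PXR partners had a median of 0.07 after scaling to the same sum, and -0.23 and -0.11 with median-of-ratios and quantile scaling. The growth hormone list had 0.04, -0.24 and -0.25 in the same order, against -0.08 as deposited. Leaving out 1 mouse or liver left 3297 to 3817 genes and 4 to 5 of the 8, and moved Cyp2a5 between -0.10 and 0.98.

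For big against small nodules, 0 to 1 genes and 0 of the 8 passed when 1 nodule was left out; 1 gene passed without the big nodule of mouse 8 and without the small nodule of mouse 8 or mouse 25. Then Cyp2b9 ranged from 0.22 to 0.89, Cyp2a4 from 0.037 to 0.77, Cyp2a12 from -0.37 to -0.19, Cyp2a22 from -1.01 to -0.080, Cyp2b13 from 0.99 to 1.77, Cyp2a5 from -0.59 to 0.85, Cyp2b10 from -0.11 to 0.12, Nr1i3 from -0.79 to 0.0098 and Cyp2a4 with Cyp2a5 from -0.024 to 0.78. Cyp2b10 was 0.0283 after quantile normalization and 0.0282 for its coding transcript, a fit added after seeing the data. With mouse as a block, the pairing the titles give, 0 genes passed, and Cyp2b13 was 1.41 (SE 0.175, adjusted p = 0.668). Where 1 nodule was left out of the fit without pairing, the level of its mouse also entered the difference. Other causes of these shifts were not tested.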
